A study of Homo sapiens with 6 samples.

Results

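The 10 genes described here encode the heat shock chaperones of the cytosol and their main cofactors: HSPA1A, HSPA1B, HSPA8, HSP90AA1, HSP90AB1, HSPB1, HSPH1, DNAJB1, DNAJA1 and BAG3. They were taken by gene symbol from a deposited table of 61552 genes, in which each had 1 row, and all 10 passed the filter on low counts that left 17363 tested genes. The RNA came from SKOV3, a long-established ovarian cancer cell line with many copies of ERBB2, and was sequenced after selection of polyadenylated transcripts. One group had received 1 µM fenbendazole for 48 h, an anthelmintic of the benzimidazole class whose target is tubulin, and the other its solvent, DMSO, alone. Each group held 3 libraries, named by the numbers in their titles as fenbendazole 7, 8 and 9 and DMSO 10, 11 and 12. The comparison asks what fenbendazole does to the transcripts of these cells. Whether the libraries came from separate cultures is not stated in the labels, and the p-values below rest on a spread between libraries that may be technical. In bulk RNA, more transcripts per cell and more cells with the transcript cannot be told apart.

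Heat shock proteins hold unfolded proteins and help them to reach or regain their shape. HSP70 proteins bind exposed stretches of a client, J proteins bring clients to HSP70 and start its ATP cycle, HSP110 and BAG proteins exchange its nucleotide, and HSP90 acts later, on near-folded clients such as kinases and steroid receptors. Some of these genes are expressed in every cell, as HSPA8, HSP90AB1 and DNAJA1 are, and others are induced by the transcription factor HSF1 when unfolded proteins build up, as HSPA1A, HSPA1B, HSPB1, HSPH1, DNAJB1, BAG3 and, in part, HSP90AA1 are. The division is one of degree, since HSF1 also acts on constitutive members.

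HSF1 binds repeats of the letters GAA in alternating orientation, called heat shock elements. The 250 bases before each RefSeq start (GRCh38.p14) were searched for 2 adjoining units, GAANNTTC or TTCNNGAA, and for 3 units, GAANNTTCNNGAA or TTCNNGAANNTTC. These pairs cover both strands, and each match of 3 units holds matches of 2. All 10 genes had at least 1 of 15 windows. A match of 3 units was found for 3 of them (HSP90AA1, HSPA8 and HSP90AB1) and is held by 0.441% of 35116 windows of all genes, and a match of 2 units was found for 8 genes, in 8 of their 15 windows, against 11.6% of all windows. The 30 bases around the longest match nearest to the start are shown for those 8 genes, so that the letters before each start can be set beside the gene's level in the results. Capitals mark the match.
HSP90AA1: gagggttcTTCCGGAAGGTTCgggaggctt
HSPA8: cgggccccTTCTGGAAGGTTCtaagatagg
HSP90AB1: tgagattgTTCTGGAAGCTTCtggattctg
HSPA1A: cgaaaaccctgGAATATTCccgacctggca
HSPA1B: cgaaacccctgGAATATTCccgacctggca
DNAJB1: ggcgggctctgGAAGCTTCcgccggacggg
HSPB1: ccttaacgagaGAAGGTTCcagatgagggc
DNAJA1: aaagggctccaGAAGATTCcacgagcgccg

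Coordinates in brackets are those of the 30 bases shown, within which the match lies. The matches of HSP90AA1 (minus strand, chr14:102087111-102087140), HSPA8 (minus strand, chr11:123062170-123062199) and HSP90AB1 (plus strand, chr6:44247823-44247852) began 88, 55 and 112 bases before a start. Those of HSPA1A (chr6:31815426-31815455) and HSPA1B (chr6:31827622-31827651), both on the plus strand, began 106 and 105 bases before it. For the other genes the 30 bases shown lay at chr19:14518426-14518455 on the minus strand for DNAJB1, and at chr7:76302480-76302509 for HSPB1 and chr9:33025064-33025093 for DNAJA1, on the plus strand. HSPH1 and BAG3 held none of these letters in their windows. A match is a description of the letters and not a site shown to be bound.

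Total counts ran from 14127578 to 17452459 in fenbendazole libraries and from 13170775 to 22128930 in DMSO libraries, so 3 counts in a library correspond to at most 0.228 CPM (counts scaled to library size), a limit for counting error only. One control, DMSO 11, stood apart: its median correlation with the other libraries was 0.877, against 0.951 to 0.956 for the other 5, over log2 CPM of the tested genes with a mean of at least 5 CPM. Over 11881 of these genes with a known transcript, its deviation from DMSO 10 and 12 followed the GC content of the transcript (Spearman rho 0.881, across genes, which are not independent replicates). Other libraries showed weaker relations with GC: rho was 0.331 for DMSO 10 minus DMSO 12. For fenbendazole 8 and 9 against their own group it was 0.433 and -0.385. The fold changes of the genes named are therefore given with and without DMSO 11. Leaving it out removes the control that deviated most, and the p-values of that fit may understate the spread between controls. All 7 carcinoma markers listed (ERBB2, KRT8, KRT18, KRT19, MUC1, PAX8 and MSLN) passed the filter on low counts. The lowest of these, MSLN, averaged 2.52 CPM with fenbendazole and 6.77 CPM in DMSO. Of 5 markers of other cell types, PTPRC, CDH5, ALB and DCN had 0 to 21 counts in each library, and PECAM1 averaged 12.2 CPM with fenbendazole and 10.3 CPM in DMSO. PECAM1 thus passed the filter as well, at a level above MSLN.

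With all 6 libraries 0 of the 10 chaperone genes passed the threshold, a Benjamini-Hochberg adjusted p of 0.05 in edgeR's quasi-likelihood test over all tested genes. Over all genes 4.03% passed, 3.11% as higher and 0.921% as lower with fenbendazole. HSPH1 and HSP90AA1 came nearest, 1.87 and 1.69 times higher with fenbendazole (adjusted p = 0.0605 and 0.0674 by edgeR), and HSPA8, HSP90AB1 and DNAJA1 were 1.39, 1.18 and 1.33 times higher. HSPA1A, HSPA1B and HSPB1 were at 0.711, 0.701 and 0.4997 times the DMSO level, and DNAJB1 and BAG3 at 0.945 and 0.902 times. At an unadjusted p of 0.05, 4 of the 10 passed as higher and 0 as lower, against 10.8% and 10.5% of all genes. By DESeq2, HSP90AA1 and HSPH1 passed as higher (adjusted p = 0.00516 and 0.00189), where DESeq2 called 2.57% of all genes higher and 1.85% lower. The DESeq2 shares are over 39079 genes, against 17363 in edgeR's test, so the 2 sets of shares are not directly comparable. Without DMSO 11, 4 of 10 passed in edgeR's test, all higher (HSP90AA1, HSPH1, HSP90AB1 and DNAJA1), where 22.3% of all genes passed, 13.1% as higher and 9.23% as lower.

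**Figure D1:**
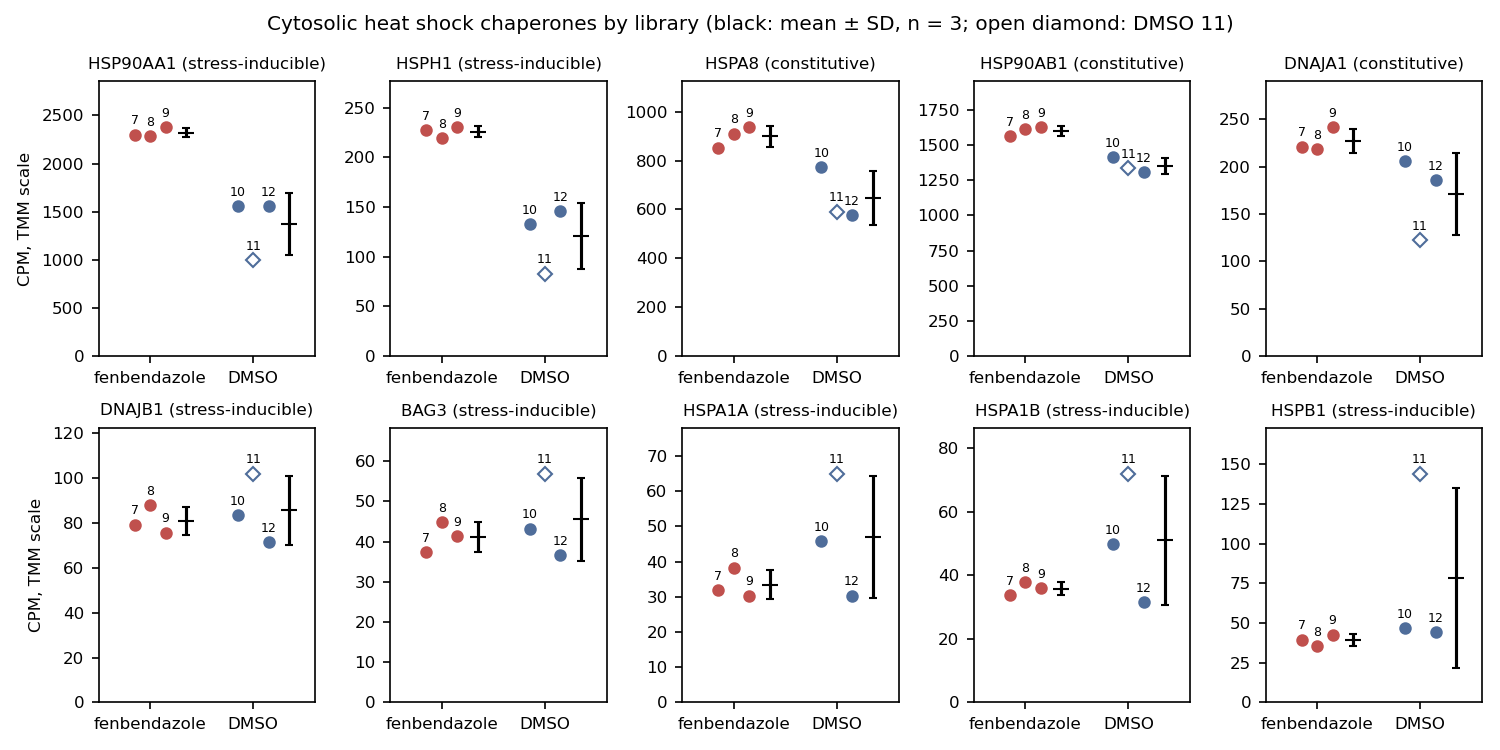
Level of each chaperone gene in every library, in CPM on the TMM scale (y axis, from 0), with the fenbendazole libraries to the left of the DMSO libraries. Points carry the library number, the open diamond is DMSO 11 and the black mark is the mean ± SD (n = 3). HSP90AA1 lies between 2286 and 2377 CPM in the fenbendazole libraries, above all DMSO libraries, while DMSO 11 is the lowest library for HSP90AA1, HSPH1 and DNAJA1 and the highest for HSPA1A, HSPA1B, HSPB1, DNAJB1 and BAG3.

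HSP90AA1, the stress-inducible HSP90 of the cytosol (ENSG00000080824, chromosome 14, 102080742 to 102139699, GRCh38), had 2299.7, 2286 and 2377 CPM in fenbendazole 7, 8 and 9, against 1555, 995 and 1558.5 CPM in DMSO 10, 11 and 12. Every fenbendazole library was above every DMSO library, and DMSO 10 and 12 were close to each other while DMSO 11 was lowest. Its log2 fold change was 0.76 ± 0.183 (SE), with a 95% interval of 0.33 to 1.19, and it was 0.58 ± 0.0529 without DMSO 11 (adjusted p = 2.79e-06 by edgeR). With offsets for GC content and transcript length it was 0.70 ± 0.111 over all 6 libraries (adjusted p = 0.00247 by edgeR). The annotated span overlaps WDR20 on the other strand, whose counts came to 1.63% of those of HSP90AA1.

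HSPH1, the HSP110 that exchanges the nucleotide of HSP70 (ENSG00000120694, chromosome 13, 31134973 to 31162388), had 227, 219 and 230.2 CPM in fenbendazole 7, 8 and 9, against 133, 82.8 and 146 CPM in DMSO 10, 11 and 12. The groups did not overlap, and DMSO 11 was again the lowest library. The log2 fold change was 0.91 ± 0.209 with all libraries and 0.70 ± 0.0692 without DMSO 11 (adjusted p = 6.47e-06 by edgeR). With GC and length offsets it was 0.76 ± 0.0700 (adjusted p = 2.98e-05 by edgeR). HSPH1 and HSP90AA1 also passed with offsets in the fit without DMSO 11, at 0.71 and 0.57.

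The constitutive members were higher with fenbendazole in all 3 libraries, by less. HSPA8, the constitutive HSP70 (ENSG00000109971, chromosome 11, 123057489 to 123063230), had 853, 910.3 and 937 CPM in fenbendazole 7, 8 and 9, against 774, 591 and 576 CPM in DMSO 10, 11 and 12. The groups did not overlap, and among the controls DMSO 11 and 12 lay together while DMSO 10 was highest. The log2 fold change of 0.48 ± 0.146 (adjusted p = 0.123 by edgeR) was 0.42 ± 0.123 without DMSO 11 (adjusted p = 0.0563) and 0.63 ± 0.132 without DMSO 10 (adjusted p = 0.089). HSP90AB1, the constitutive HSP90 (ENSG00000096384, chromosome 6, 44246166 to 44253888), had 1563, 1615 and 1627 CPM with fenbendazole, against 1415, 1337 and 1306 CPM in DMSO. It had the smallest spread between controls of the 10 genes relative to its level, and its log2 fold change was 0.24 ± 0.104 (adjusted p = 0.232 by edgeR), and again 0.24, ± 0.0566, without DMSO 11 (adjusted p = 0.00722).

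DNAJA1, a J protein that works with HSPA8 (ENSG00000086061, chromosome 9, 33025273 to 33039907), had 221, 219 and 242 CPM in fenbendazole 7, 8 and 9, against 206, 122 and 186 CPM in DMSO 10, 11 and 12. The groups did not overlap, but DMSO 10 lay close below fenbendazole 8. The log2 fold change was 0.41 ± 0.197 (adjusted p = 0.278 by edgeR), and it was 0.22 ± 0.0717 without DMSO 11 (adjusted p = 0.0407). That call was lost with GC and length offsets in the same 5 libraries (0.19, adjusted p = 0.053 by edgeR).

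HSPA1A and HSPA1B, neighbouring single-exon genes for the stress-inducible HSP70, were lower with fenbendazole on average, and did not pass the test. HSPA1A (ENSG00000204389, chromosome 6, 31815543 to 31817946) had 31.8, 38.3 and 30.3 CPM in fenbendazole 7, 8 and 9, against 45.9, 65.0 and 30.3 CPM in DMSO 10, 11 and 12. HSPA1B (ENSG00000204388, chromosome 6, 31827738 to 31830254) had 33.7, 37.9 and 35.9 CPM with fenbendazole, against 49.7, 72.0 and 31.5 CPM in DMSO. The groups overlapped for both, since DMSO 12 was at or below the fenbendazole libraries and DMSO 11 far above them. Their coding sequences in GENCODE v29 differ in 4 of 1923 bases and encode the same protein, so reads may be shared between the 2 rows and their sum is the safer value. On the log2 scale it differed by -0.50 ± 0.271 (adjusted p = 0.324 by edgeR), and -0.18 ± 0.19 without DMSO 11 (adjusted p = 0.579). For HSPA1A alone the 95% interval without DMSO 11 ran from -0.57 to 0.21.

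DNAJB1 and BAG3, HSF1 targets that serve HSP70, gave the smallest differences. DNAJB1, a stress-induced J protein (ENSG00000132002, chromosome 19, 14514769 to 14560391), had 79.1, 87.9 and 75.6 CPM in fenbendazole 7, 8 and 9, against 83.4, 101.9 and 71.3 CPM in DMSO 10, 11 and 12. BAG3, which links HSP70 and small heat shock proteins to autophagy (ENSG00000151929, chromosome 10, 119651380 to 119677819), had 37.4, 44.8 and 41.3 CPM with fenbendazole, against 43.2, 56.9 and 36.7 CPM in DMSO. The groups overlapped for both, with DMSO 11 highest and DMSO 12 lowest of all 6 libraries. The log2 fold changes of -0.08 ± 0.162 and -0.15 ± 0.192 (adjusted p = 0.797 and 0.685 by edgeR) turned to 0.07 and 0.05 without DMSO 11 (adjusted p = 0.661 and 0.813). Without that library the 95% intervals were -0.13 to 0.27 for DNAJB1 and -0.20 to 0.30 for BAG3. The span of DNAJB1 overlaps TECR and MIR639 on the other strand, which held counts equal to 41.6% of its own, and the labels do not say whether strand was kept.

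HSPB1, the small heat shock protein HSP27 (ENSG00000106211, chromosome 7, 76302673 to 76304295), had 39.6, 35.4 and 42.6 CPM in fenbendazole 7, 8 and 9, against 46.8, 144 and 44.2 CPM in DMSO 10, 11 and 12. It was lower with fenbendazole in all 3 libraries, and DMSO 11 alone stood far above the other controls. The log2 fold change of -1.001 ± 0.446 (adjusted p = 0.249 by edgeR) was -0.21 ± 0.109 without DMSO 11 (adjusted p = 0.207). With GC and length offsets and all 6 libraries it was -0.32 (adjusted p = 0.106).

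**Figure D2:**
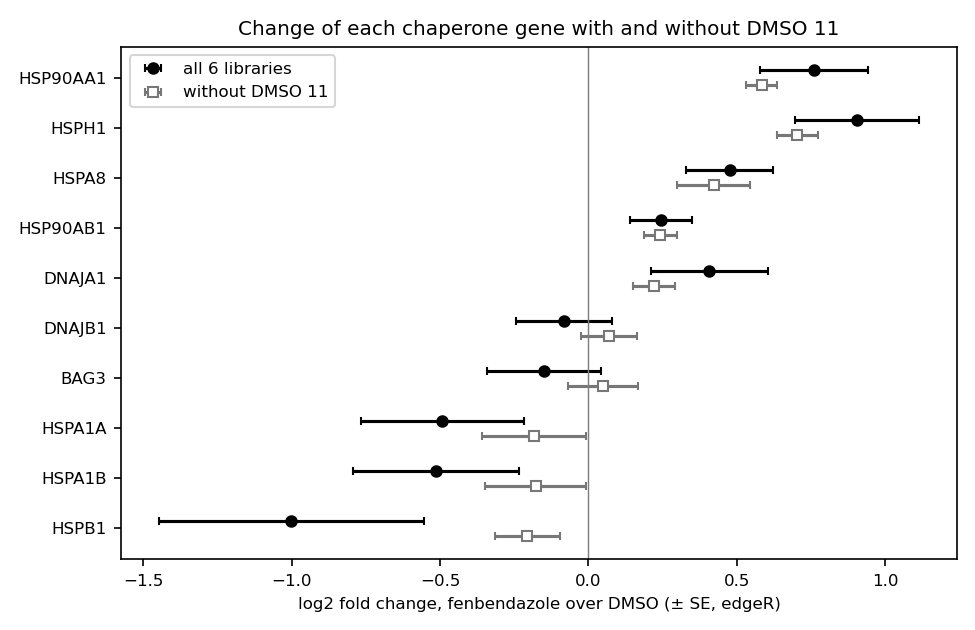
Log2 fold change of fenbendazole over DMSO for the 10 chaperone genes (x axis, edgeR, ± SE), with all 6 libraries (filled circles) and without DMSO 11 (open squares). HSP90AA1 and HSPH1 stay above 0.5 in both fits, HSPB1 is at -1.001 with all libraries and -0.21 without DMSO 11, and DNAJB1 and BAG3 change sign.

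In all, 5 of the 10 genes were higher in every fenbendazole library than in any DMSO library, and 1, HSPB1, was lower, with and without DMSO 11. Over all tested genes, 17.0% lay wholly higher and 15.5% wholly lower with 6 libraries, and 24.6% and 24.8% without DMSO 11. The median log2 fold change of the 10 was 0.08, and 0.15 without DMSO 11, against -0.06 and -0.01 over all genes. The 10 genes together held 0.525% to 0.549% of all counts in the fenbendazole libraries and 0.367% to 0.438% in the DMSO libraries, most of it from the HSP90 genes and HSPA8.

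The division by inducibility did not sort the genes by direction. Of 7 stress-inducible members 2 were wholly higher with fenbendazole, 1 was wholly lower and 4 overlapped, and of 3 constitutive members all 3 were wholly higher. Over all tested genes 17.0% were wholly higher and 15.5% wholly lower. The constitutive members held 41.7% to 48.1% GC, and HSP90AA1 and HSPH1 45.2% and 39.95%. The other inducible members held 53.0% to 64.3%, and the part of GC content in this contrast was not tested. The mean log2 CPM of the inducible members minus that of the constitutive members was -2.82, -2.77 and -2.89 in fenbendazole 7, 8 and 9, against -2.65, -1.96 and -2.66 in DMSO 10, 11 and 12. The inducible genes thus lay further below the constitutive ones in every fenbendazole library, by 0.40 on average, and by 0.17 without DMSO 11. The mean of the constitutive members was 9.43 ± 0.0543 with fenbendazole and 9.04 ± 0.205 in DMSO (SD, n = 3 each, log2 CPM), and that of the inducible members was 6.60 ± 0.045 with fenbendazole and 6.61 ± 0.264 in DMSO. Over DMSO 10 and 12 alone the means were 9.13 and 6.48. Against these the constitutive mean was higher with fenbendazole by 0.29 and the inducible mean by 0.12, where the inducible groups overlapped. As the genes had been chosen with results of these data known, this score was given no test.

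Ratios within a library do not depend on how libraries are scaled, and they separated the HSP90 pair from the HSP70 pair. HSP90AA1 over HSP90AB1, as a ratio of counts, was 1.47, 1.42 and 1.46 in fenbendazole 7, 8 and 9, against 1.0987, 0.745 and 1.19 in DMSO 10, 11 and 12. HSPA1A plus HSPA1B made 7.69%, 8.37% and 7.06% of the HSPA8 counts with fenbendazole, against 12.35%, 23.2% and 10.7% in DMSO. The HSP90 ratio was thus higher, and the HSP70 ratio lower, in every fenbendazole library than in any DMSO library. HSPA1A and HSPA1B themselves overlapped between the groups, while HSPA8, their denominator, was wholly higher with fenbendazole. HSPA1A and HSPA1B are also richer in GC (59.7% and 58.7%) than HSPA8 (46.98%), and the part of GC content in this ratio was not tested. No share over other pairs of genes was computed. BAG3 over HSPA8 was 4.39%, 4.92% and 4.41% with fenbendazole and 5.58%, 9.63% and 6.37% in DMSO, without overlap. This ratio has the same HSPA8 denominator as the HSP70 ratio, and BAG3 itself overlapped between the groups. HSPH1 over HSPA8 was 26.7%, 24.1% and 24.6% with fenbendazole, against 17.2%, 14.0% and 25.3% in DMSO, and DNAJB1 over DNAJA1 was 0.358, 0.402 and 0.312 with fenbendazole, against 0.405, 0.833 and 0.384 in DMSO. For the last 2 ratios the groups overlapped, HSPH1 over HSPA8 because DMSO 12 was as high as the fenbendazole libraries.

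**Figure D3:**
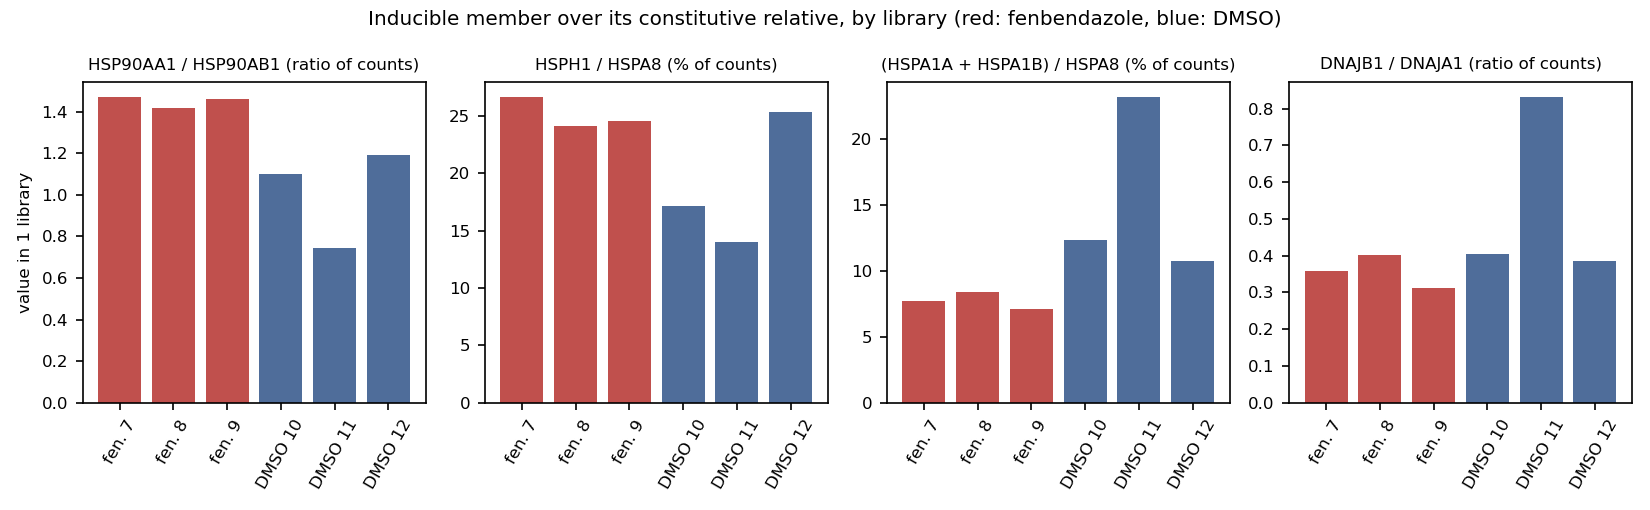
Ratio of an inducible gene's counts to those of its constitutive relative in each library (y axes from 0, bars are single libraries, fenbendazole in red left of DMSO in blue). HSP90AA1 over HSP90AB1 is at least 1.42 in the fenbendazole libraries and at most 1.19 in DMSO, and HSPA1A plus HSPA1B over HSPA8 is at most 8.37% with fenbendazole and at least 10.7% in DMSO.

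Per transcript length, in the FPKM values that the authors deposited, the 10 genes spanned a wide range, given here over all 6 libraries. HSP90AA1 was at 615 ± 4.54 FPKM with fenbendazole and 381 ± 79.3 in DMSO (SD, n = 3 each), and HSP90AB1 at 534 ± 10.6 with fenbendazole and 476 ± 20.0 in DMSO. By FPKM the inducible HSP90 was thus the most abundant of the 10 in each fenbendazole library and the constitutive one in each DMSO library. By counts, not scaled to length, HSP90AA1 was above HSP90AB1 in DMSO 10 and 12 as well (ratios of 1.0987 and 1.19). HSPA8 followed (356 ± 8.43 FPKM with fenbendazole, 269 ± 45.5 in DMSO), and then DNAJA1 (84.2 ± 3.16 with fenbendazole, 67.0 ± 15.05 in DMSO). In DMSO HSPB1 lay between these on average: it was at 41.5 ± 2.90 with fenbendazole and 87.3 ± 64.7 in DMSO, where DMSO 11 alone had 162. The low end held HSPH1 (40.05 ± 1.67 FPKM with fenbendazole, 22.0 ± 5.7 in DMSO), DNAJB1 (30.5 ± 2.79 with fenbendazole, 33.9 ± 6.83 in DMSO) and BAG3 (14.0 ± 1.47 with fenbendazole, 16.4 ± 4.43 in DMSO). HSPA1B (12.1 ± 0.776 with fenbendazole, 18.4 ± 7.96 in DMSO) and HSPA1A (11.97 ± 1.599 with fenbendazole, 17.9 ± 7.296 in DMSO) did not differ from each other or from BAG3 beyond their spread in DMSO.

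GC content moved with the differences among these genes. The longest transcript held 39.95% GC for HSPH1, 41.7% for DNAJA1, 45.2% for HSP90AA1, 46.98% for HSPA8 and 48.1% for HSP90AB1. It held 53.0% for DNAJB1, 56.9% for BAG3, 58.7% for HSPA1B, 59.7% for HSPA1A and 64.3% for HSPB1. The genes that were higher with fenbendazole were thus the 5 poorest in GC. Over the 10 genes, Spearman's rho with GC was 0.988 for the deviation of DMSO 11 from the other controls, -0.952 for the log2 fold change and -0.927 for the log2 fold change without DMSO 11; the 10 genes share the same 6 libraries. Over all tested genes with a transcript, rho between log2 fold change and GC was -0.455, and -0.03 without DMSO 11. With offsets for GC content and transcript length, HSP90AA1, HSPH1, HSPA8 (0.44, adjusted p = 0.0105) and HSP90AB1 (0.23, adjusted p = 0.0127) passed edgeR's test, 4 of 10, where 12.6% of all genes passed as higher. The call of HSPA8 was lost with the same offsets and without DMSO 11 (0.40, adjusted p = 0.0723 by edgeR).

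**Figure D4:**
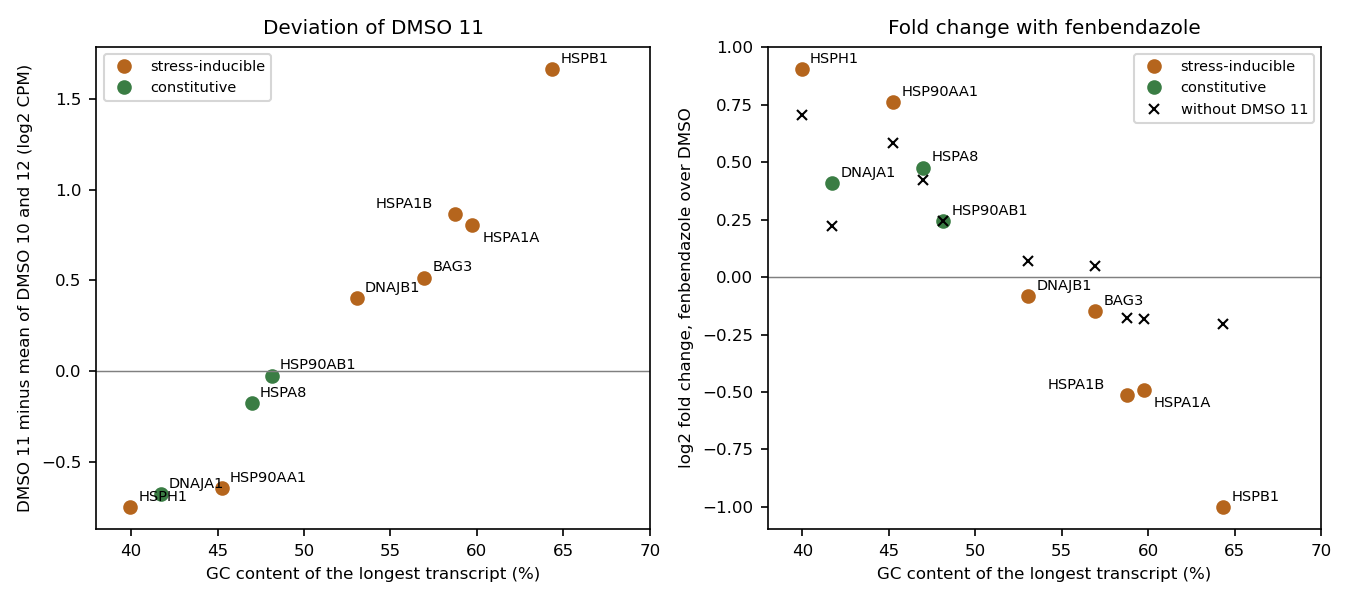
Left, log2 CPM of DMSO 11 minus the mean of DMSO 10 and 12 for each of the 10 genes, and right, log2 fold change of fenbendazole over DMSO (circles, all 6 libraries; crosses, without DMSO 11), both against the GC content of the longest transcript. DMSO 11 deviates upward with GC, from -0.75 for HSPH1 to 1.66 for HSPB1, and the fold change is lower at higher GC in both fits.

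Other genes of the pathway were read from a list of 45 by role, of which 39 passed the filter on low counts. With all 6 libraries 0 of 39 passed edgeR's adjusted threshold, with 11 higher and 1 lower at an unadjusted p of 0.05, against 10.8% and 10.5% of all genes. DESeq2 called 7 higher and 1 lower, against 2.57% and 1.85% of the 39079 genes in that fit. In the fit without DMSO 11, 12 of 39 rose and 2 fell, against 13.1% and 9.23% of all genes. The median log2 fold change of the list was 0.23 with all libraries and 0.16 without DMSO 11.

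Of 16 cochaperones of HSP70 and HSP90, 5 rose and 1 fell without DMSO 11, against 13.1% and 9.23% of all genes. With all 6 libraries 0 of the 16 passed edgeR's test. Those that rose were FKBP5 and PPID, immunophilins that bind HSP90, PTGES3 (p23), which closes the HSP90 cycle, STIP1 (HOP), which joins HSP70 to HSP90, and AHSA1, which speeds the HSP90 ATPase. FKBP5 averaged 31.7 ± 1.17 CPM with fenbendazole and 16.9 ± 4.16 in DMSO (SD, n = 3 each), with a log2 fold change of 0.91 with all libraries (adjusted p = 0.0628 by edgeR) and 0.73 without DMSO 11 (adjusted p = 0.000731). PTGES3 averaged 553 ± 7.73 CPM with fenbendazole and 376 ± 64.4 CPM in DMSO (0.56 with all libraries, adjusted p = 0.0893, and 0.43 without DMSO 11, adjusted p = 0.000114). STIP1 averaged 237.6 ± 4.93 CPM with fenbendazole and 168 ± 17.2 CPM in DMSO (0.50 with all libraries, adjusted p = 0.0688, and 0.49 without DMSO 11, adjusted p = 0.000594). PPID and AHSA1 rose by 0.46 and 0.34 on the log2 scale without DMSO 11, and were at 0.64 and 0.29 with all libraries (adjusted p = 0.131 and 0.228). BAG5, a BAG-domain cofactor of HSP70, fell by 0.33 without DMSO 11 and was at -0.22 with all libraries (adjusted p = 0.406). CDC37, which brings kinases to HSP90, was at -0.31 with all libraries and 0.11 without DMSO 11 (adjusted p = 0.556 and 0.442).

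Of 4 further HSP70 and HSP110 genes HSPA14 and HSPA4 rose without DMSO 11, where 13.1% of all genes passed as higher. HSPA14, of a ribosome-bound HSP70, had 22.7 ± 1.38 CPM with fenbendazole and 10.6 ± 3.13 CPM in DMSO (0.88, adjusted p = 0.000481 by edgeR), and HSPA4 rose by 0.20. With all libraries these were at 1.10 and 0.33 (adjusted p = 0.0592 and 0.256). Of 7 further J proteins DNAJB6 and DNAJC7 rose without DMSO 11 (0.32 and 0.22), against the same 13.1%. With all libraries DNAJB6 and DNAJC7 were at 0.36 and 0.28 (adjusted p = 0.136 and 0.238). Of 6 other HSF1 targets CACYBP, MRPL18 and UBB, a ubiquitin gene, rose without DMSO 11 (0.49, 0.50 and 0.29), again against 13.1% of all genes. With all libraries these 3 were at 0.56, 0.51 and 0.25 (adjusted p = 0.0609, 0.0768 and 0.233). HSPA6, an HSP70 that is silent outside strong stress, had 0 or 1 counts in each library of both groups and was not tested. Of the 2 small heat shock proteins with enough counts, HSPB8 and CRYAB, 0 passed.

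Of 4 transcription factor genes and their regulators, 0 rose and 1, HSF4, fell without DMSO 11, against 13.1% and 9.23% of all genes. With all 6 libraries 0 of the 4 passed edgeR's test. HSF1, the master regulator, averaged 32.6 ± 0.908 CPM with fenbendazole and 44.1 ± 27.9 CPM in DMSO, with DMSO 11 at 76.4 CPM. Its log2 fold change was -0.44 (adjusted p = 0.54 by edgeR) and turned to 0.22 without DMSO 11 (adjusted p = 0.177). HSF2 was at 0.26 and 0.08 in the same fits (adjusted p = 0.49 and 0.633). HSF4 averaged 3.39 ± 0.698 CPM with fenbendazole and 7.29 ± 2.26 CPM in DMSO. It was at -1.11 with all libraries (adjusted p = 0.103 by edgeR) and fell by 0.87 without DMSO 11 (adjusted p = 0.0448), where DMSO 10 and 12 had 4.90 and 7.59 CPM. With all libraries DESeq2 called it lower (-1.12, adjusted p = 0.0262). It did not pass with GC and length offsets (-0.70, adjusted p = 0.107 by edgeR) or with library quality weights (-0.69, adjusted p = 0.0655 by limma-voom).

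**Figure D5:**
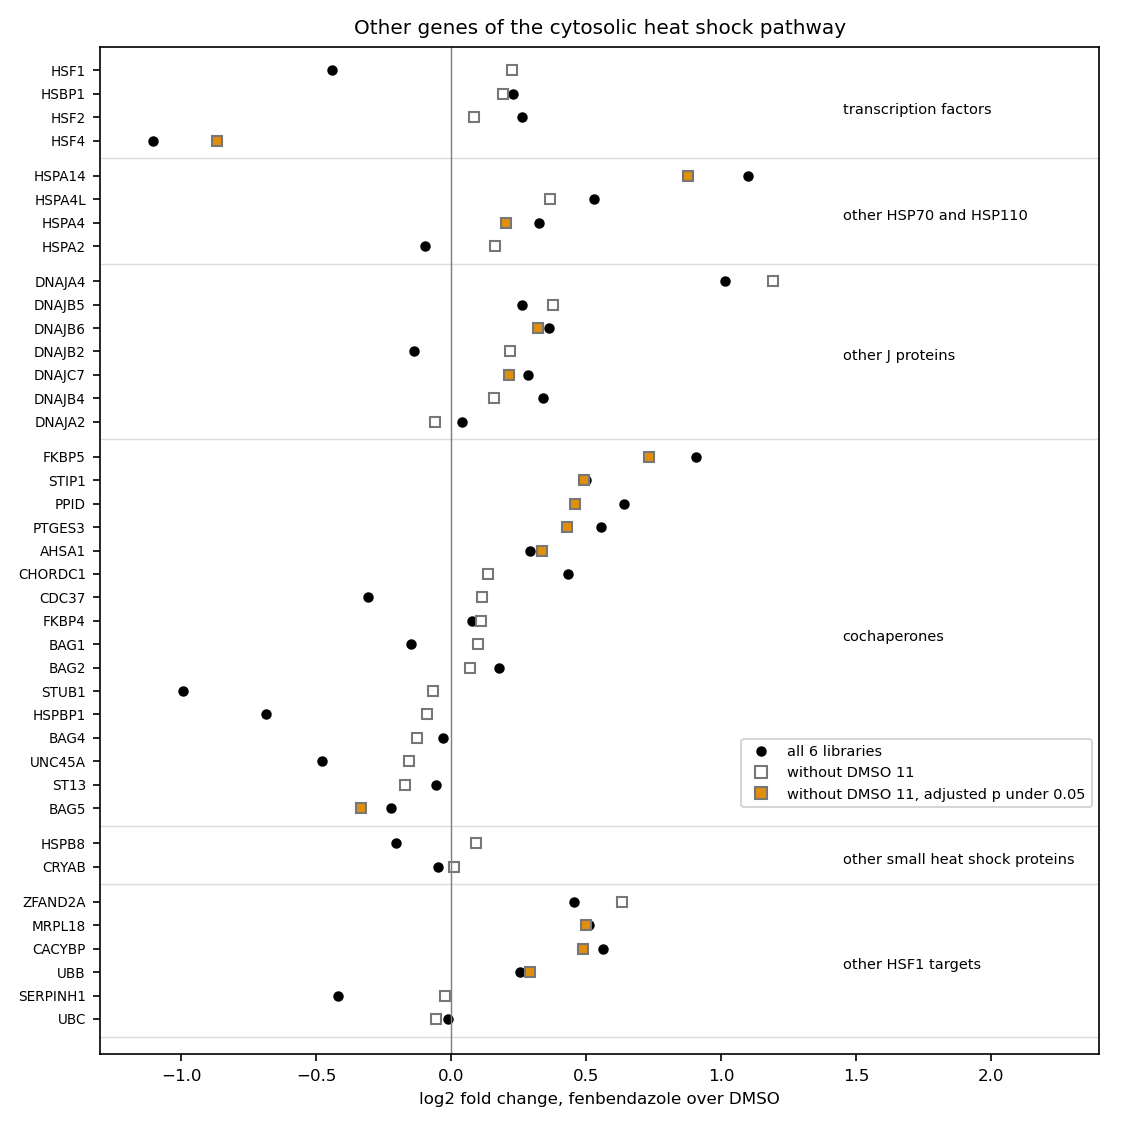
Log2 fold change of fenbendazole over DMSO (x axis) for the 39 other pathway genes that passed the filter, by role, with all 6 libraries (black circles) and without DMSO 11 (squares, filled where the adjusted p is under 0.05). Black circles far left of their squares, as for the ubiquitin ligase STUB1 at -0.995 and -0.07, are genes whose level was raised in DMSO 11.

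Chaperones of the ER and mitochondria, listed for comparison, gave 1 call among 8 with all libraries, a higher one, against 3.11% of all genes. DNAJB11, a J protein of the ER, averaged 117 ± 7.77 CPM with fenbendazole and 76.6 ± 6.30 CPM in DMSO, a log2 fold change of 0.61 (adjusted p = 0.0427 by edgeR). Its call was lost without each of the other 5 libraries in turn, where the log2 fold change was 0.56 to 0.66 (adjusted p = 0.0752 to 0.234), and was kept without DMSO 11 (0.55, adjusted p = 0.000207). It was also lost with upper-quartile scaling (0.54, adjusted p = 0.0705), with no filter on low counts (0.60, adjusted p = 0.0651), in both FPKM fits (0.47 and 0.48, adjusted p = 0.143 and 0.145 by limma) and with GC and length offsets (0.33, adjusted p = 0.155). HSPA5 (BiP), the central ER stress marker, was at -0.06, and at -0.11 without DMSO 11 (adjusted p = 0.795 and 0.23). Without DMSO 11, 5 of the 8 rose, against 13.1% of all genes: DNAJB11, HSPD1 (0.45), HSPE1 (0.38), HSP90B1 (0.26) and HYOU1 (0.21). With all libraries the last 4 were at 0.55, 0.55, 0.45 and 0.12 (adjusted p = 0.0662, 0.182, 0.236 and 0.609 by edgeR). HSPA9 was at 0.14 with all libraries and 0.03 without DMSO 11. HSPE1 lies within the span of HSPD1 on the other strand, so their reads may not be fully separate.

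The 10 genes did not share one profile. Each gene's correlation with their mean standardised profile over the 6 libraries ran from 0.0955 for HSPB1 to 0.683 for HSP90AB1. Pearson's r was 0.997 between HSP90AA1 and HSPH1 and 0.923 between HSPA1A and BAG3, but -0.830 between HSPA1A and HSPH1. The mean profile was thus not that of any 1 member, and likeness to it is not likeness to a member. Among the genes outside the 10 most like that mean profile, of 11931 with at least 5 CPM, were TCF20, NDUFA2, TEX261 and RPSA, with Pearson's r of 0.991, 0.988, 0.969 and 0.968, over only 6 libraries that all these values share.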

How the data were processed

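The authors deposited read counts per gene that were not normalised and, per the file headers, FPKM values (fragments scaled by length and depth) for the same 6 libraries. The build is GRCh38 and the tools named are edgeR, StringTie 1.3.4b, HISAT2 2.1.0 and CASAVA 1.8, per the submitters' processing notes. What counted the reads, with which annotation, strand and multi-mapping settings, was not given in the sources used here. Library totals lay between 13170775 and 22128930 counts, and replicates differed by more than sampling noise (chi-square divided by its degrees of freedom, 4.86 or more), so none was merged.

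Counts were tested here with edgeR 4.0.16 (R 4.3.3): TMM scaling, edgeR's filter on low counts, robust quasi-likelihood F test, Benjamini-Hochberg adjustment over 17363 genes, threshold 0.05. Standard errors were derived from F. CPM are on the TMM scale. Alternatives used limma 3.58.1, DESeq2 1.42.0, log2 of the deposited FPKM with 1 or 0.1 added (mean FPKM of 1 or more), and each library left out. Offsets for GC content and length (longest transcript, GENCODE v29, 97.8% of genes) were added after seeing the data. The fit was also run on counts simulated without a GC-related deviation of any library, so that run does not bear on the effect of DMSO 11. The 10 genes, the lists and the settings were chosen with earlier results of these data known. Text names the 10 genes, list genes past the threshold with or without DMSO 11, and HSF1, HSF2, HSPA6, HSPA5, HSP90B1, HSPA9 and HSPD1, and the 5 genes most like the mean profile, of which 1 is not reported here. CDC37, HSPB8, CRYAB and STUB1 were named after their values were seen. Promoter sequences came from RefSeq.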

Additional observations from a re-analysis of the deposited data

How the results depend on the processing

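No paired analysis was possible because fenbendazole libraries (7, 8, 9) and DMSO libraries (10, 11, 12) have no number in common. Against 0 of the 10 genes called with all libraries, the number called higher, with the share of all genes called higher in brackets, was 2 with no filter on low counts (1.34%), 1 with a filter of 1 CPM (4.33%), 2 with DESeq2 (2.57%), 1 with limma-voom (3.42%), 4 with library quality weights (13.6%), 4 with offsets for GC content and length (12.6%) and 3 with those offsets and without DMSO 11 (15.1%). It was 0 to 4 when 1 library was left out, and above 0 only without DMSO 11 (13.1%). None of the 10 was called lower in these fits. The shares with no filter and with DESeq2 are over 39099 and 39079 genes, against 17363 in the main fit. Of the 39 pathway genes, to be read against the same shares, the number higher was 3 with the filter of 1 CPM, 7 with DESeq2, 2 with limma-voom, 10 with quality weights, 12 with offsets, 15 with offsets and without DMSO 11, and 0 to 12 with 1 library left out. The number lower, with the share of all genes called lower, was 1 with DESeq2 (1.85%) and with quality weights (11.8%), 2 with offsets (8.43%), 3 with offsets and without DMSO 11 (10.2%), and 0 to 2 with 1 library left out. The other scalings, FPKM fits, the summed HSPA1A and HSPA1B and an adjusted p of 0.01 called 0 in each. Upper-quartile scaling moved the median of all genes to -0.13, against -0.06. Of 626 values of 33 named genes under alternatives, 11 reversed and none of these was called. DNAJB1 was 0.016 with quality weights, 0.032 with offsets, 0.045 with offsets and without DMSO 11, and -0.19 to 0.069 with 1 library left out. BAG3 was 0.076 with offsets, 0.026 with offsets and without DMSO 11, and -0.28 to 0.049 with 1 library left out. HSF1 was 0.16, 0.20, 0.23 and -0.69 to 0.22 in the same 4 settings as DNAJB1. The inducible minus constitutive difference ran from -0.52 to -0.17 with 1 library left out, and was -0.51 with another assignment and -0.39 from FPKM. The offsets were chosen after seeing the data. The cause of these differences was not tested.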
